A study of Danio rerio with 8 samples.

Results

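The unoperated adult zebrafish retina was described from the 4 RNA pools labelled Control 1 to Control 4, which were all the control samples among the 8 samples of a study of optic nerve crush. The other 4 samples came from crushed fish and were not used. Each control pool held the right retinae of 4 wild type fish that were intact, aged 9 to 12 months, kept on a 12 h light and dark cycle and not separated by sex. Each pool was measured on 1 one-colour Agilent zebrafish array labelled with Cy3. All 4 control arrays lay on 1 slide, so each pool had its own position on that slide and a pool cannot be told apart from its array. A single group has no comparison between groups, and every value below is therefore a description of these 4 pools, given on the log2 signal scale.

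The vertebrate retina turns light into a neural signal through rods and cones, whose outer segments carry an opsin, a G protein (transducin), a phosphodiesterase and a cyclic nucleotide channel. Bipolar, horizontal and amacrine cells process that signal, ganglion cells send it to the brain through the optic nerve, and Muller glia span the tissue and recycle neurotransmitter. Zebrafish have rods and cones tuned to ultraviolet, blue, green and red light, and their retina is known for a high demand for energy, for its daily rhythms and for the capacity to regrow neurons and axons.

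Of 43603 probes on the array, 25598 (58.7%) were matched to a gene symbol, and they stood for 13143 genes. A gene was kept when the scanner software had marked at least 1 of its probes as well above background on each of the 4 control arrays, which left 10712 genes (81.5%). Each gene was represented by its probe with the highest mean signal, and the genes were ranked by that mean. The level of a signal also depends on how well a probe hybridises, so the order is an order of probe signals and not of transcript numbers. In a whole retina, fewer cells of a type and less RNA per cell cannot be told apart. Median intensity ran from 153 to 194.5 (background 17 to 19), the share of spots marked as well above background from 72.5% to 84.0%, and saturation was not seen. Pearson's r between pools across genes ran from 0.979, for pools 1 and 4, to 0.989, for pools 2 and 3.

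Many of the brightest genes of the intact retina were photoreceptor genes, with enzymes of glycolysis and energy transfer among them. Mean signals over the 10712 genes ran from 5.66 to 18.95, with a median of 9.76. Of the 30 genes with the highest signal, 13 were on the lists of rod, cone and shared photoreceptor genes and 3 were on the glycolysis list. Among the 100 brightest genes, 23 were photoreceptor genes and 15 coded for proteins of the cytosolic ribosome.

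The highest signal belonged to rbp4l, a relative of the retinol carrier of blood plasma, at 18.97, 18.97, 18.93 and 18.93 in pools 1 to 4. Next came rho, which codes for the rod visual pigment rhodopsin, at 18.58, 18.58, 18.58 and 18.65. The third was pde6ha, the inhibitory subunit of the cone phosphodiesterase, at 18.65, 18.53, 18.44 and 18.18. Quantile normalisation gives every array the same set of values, so the few brightest genes can hardly differ between pools on this scale. Glycolysis was represented by gapdhs (18.15 ± 0.07, SD, n = 4 pools), eno1a (17.85 ± 0.16) and aldocb (17.67 ± 0.11), which code for a glyceraldehyde-3-phosphate dehydrogenase, an enolase and an aldolase. Energy transfer was represented by slc25a5, the mitochondrial carrier that exchanges ADP for ATP, at 17.96 ± 0.07 and by ckbb, a brain-type creatine kinase, at 17.94 ± 0.14.

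Not every gene at the top was equally well supported by its other probes. Of the 30 brightest genes, 5 had 1 probe. Of the 25 with several, 10 had all probes within 2 on the log2 scale and 7 had probes more than 5 apart. The 8 probes of rho all lay between 15.42 and 18.59, and the 10 probes of slc25a5 spanned 1.71. The opposite held for parn, a poly(A) ribonuclease, which had 1 probe at 18.07 and others at 12.02, 11.09, 7.84 and 6.09. A similar spread was found for spag1b, marveld2b, vps26c, pde8a, mybpc2b and slc49a3. For mybpc2b, a myosin-binding protein of fast skeletal muscle, the brightest probe was at 17.71 and the others, at 5.87 and 5.22, were not well above background on all 4 arrays. Which of the probes of these 7 genes reports the transcript was not tested. Smaller spreads, of 3.91, 4.71 and 4.55, were found for the glycolysis genes gapdhs, eno1a and aldocb, and of 4.90 for gnb1a. When the median of a gene's probes stood in for the brightest, 17 of the 30 genes remained among the top 30.

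**Figure D1:**
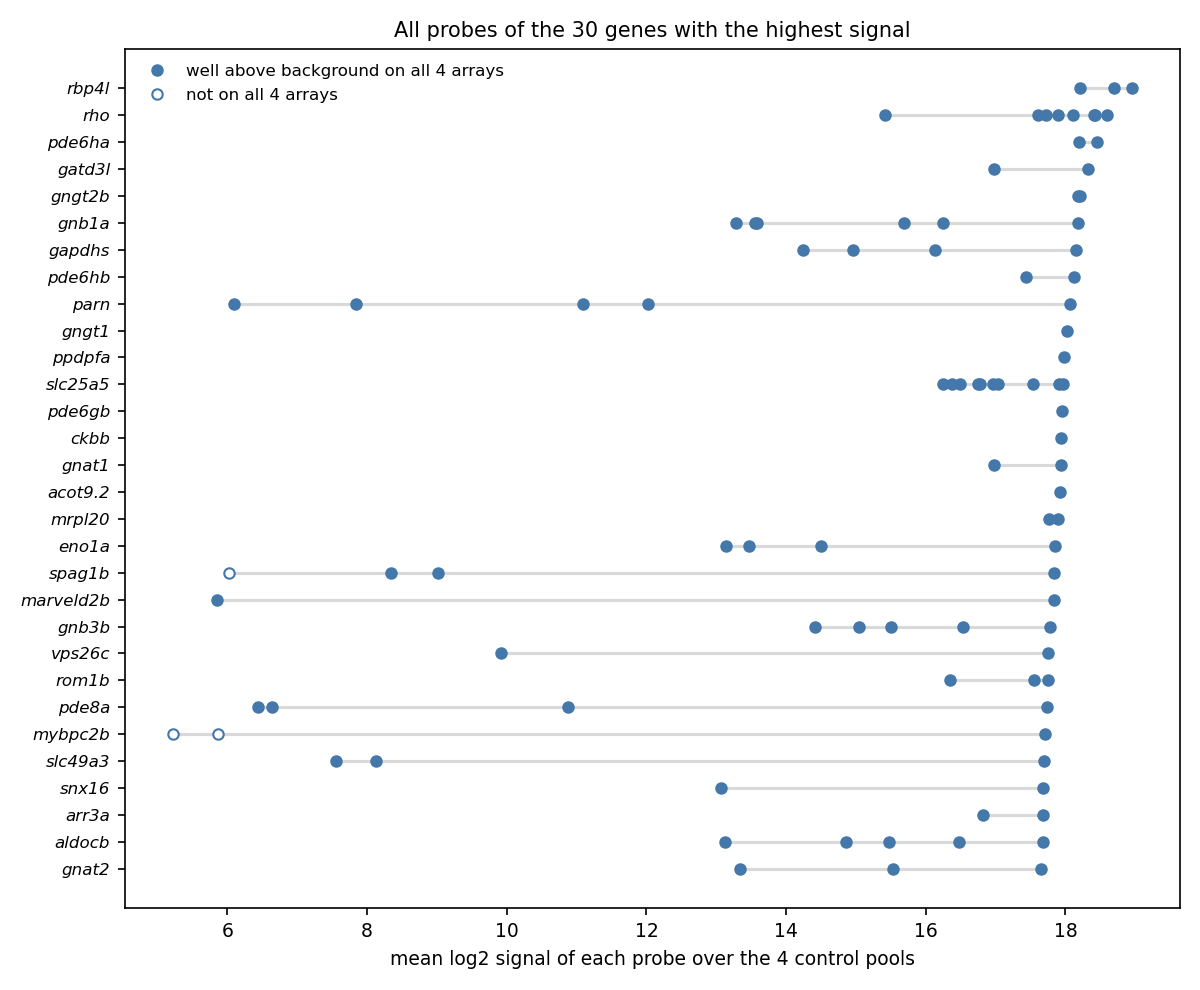
Mean log2 signal over the 4 control pools of every probe (points) of the 30 genes with the highest signal, ordered from the brightest gene at the top. Filled points were well above background on all 4 arrays, and for 7 genes (parn, spag1b, marveld2b, vps26c, pde8a, mybpc2b and slc49a3) the probes lay more than 5 log2 units apart, whereas those of rho lay between 15.42 and 18.59.

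Rod genes stood near the top of the order. Of 22 genes listed for rods, 18 were on the array under a symbol, all 18 passed the filter and 13 were in the brightest 10% of all genes, the share against which such counts are read. Their median percentile was 99.2. The chain of rod phototransduction was bright at most steps measured: the transducin subunits gnb1a (18.18 ± 0.15), gngt1 (18.03 ± 0.13) and gnat1 (17.93 ± 0.15), the phosphodiesterase subunits pde6gb (17.95 ± 0.11) and pde6a (16.56 ± 0.18), and the arrestin sagb (16.74 ± 0.33), which ends the response. Lower signals came from the channel subunit cnga1a (13.07 ± 0.30), the rhodopsin kinase grk1a (11.84 ± 0.12) and the rod transcription factors nrl (11.43 ± 0.25) and nr2e3 (10.74 ± 0.61), so the list spanned percentiles from 63.7 to above 99.9.

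Cone genes stood as high in the order, with 20 of 27 listed genes on the array, all 20 past the filter, 17 in the brightest 10% and a median percentile of 99.2. The cone transducin subunits gngt2b (18.21 ± 0.07), gnb3b (17.78 ± 0.11) and gnat2 (17.65 ± 0.44), the phosphodiesterase subunits pde6hb (18.13 ± 0.16) and pde6c (17.13 ± 0.67) and the arrestin arr3a (17.67 ± 0.67) all had a rank of 58 or better. The transcription factors six7 (13.86 ± 0.57) and thrb (13.14 ± 0.50), which act in cone fate, were dimmer, and grk7b, a cone opsin kinase, was dimmest at 9.53 ± 0.59. A range of at least 1 between the highest and the lowest pool, a 2-fold difference that 9.91% of all genes showed, was found for 11 of 20 cone genes and 3 of 18 rod genes, and the difference between the lists was not tested. Without pool 1 the rod count was 1. Genes with such a range are called variable below.

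Of 35 genes listed as shared by both photoreceptor types, 24 were on the array and passed and 14 were in the brightest 10%. The homeobox factor crx was at 16.28, 16.37, 16.09 and 16.25, and rbp3, the retinoid carrier of the space around the outer segments, was at 16.57, 16.45, 16.08 and 15.72. Guanylate cyclase and its activating proteins, which restore the dark state after light, ran from guca1c (16.23 ± 1.35) and guca1aa (15.05 ± 0.68) through gucy2d (12.65 ± 0.75) to gucy2f (9.55 ± 0.21). The pineal opsin gene exorh, a gene outside the lists that was singled out after its values were seen, had a signal of 17.50 ± 0.16 by 1 of its 2 probes. The other probe, at 5.88, did not pass the filter, and which of the probes reports the transcript was not tested.

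Among inner neurons the lists of amacrine and bipolar cells stood higher in the order than that of horizontal cells. Of 22 amacrine genes on the array 20 passed, 7 were in the brightest 10% and the median percentile was 84.3. The brightest served transmission by GABA: the transporter slc6a1b (16.19 ± 0.20), the synthetic enzymes gad1b (15.02 ± 0.07) and gad2 (14.48 ± 0.19) and the vesicular transporter slc32a1 (13.70 ± 0.15). Markers of small amacrine classes were dimmer, with the cholinergic marker chata at 9.49 ± 0.23 and the dopaminergic marker th at 9.10 ± 0.22. The genes ptf1a and slc6a5 were not marked as well above background on any of the arrays. All 16 bipolar genes on the array passed, 5 of them in the brightest 10%, with a median percentile of 80.4. The calcium-binding protein cabp2a led at 15.91 ± 0.09, followed by gnao1b (15.13 ± 0.20), the G protein subunit that couples the glutamate receptor of ON bipolar cells. Those receptors themselves, grm6b (10.04 ± 0.36) and grm6a (7.76 ± 0.14), were among the dimmer members. None of the 10 horizontal cell genes that passed, of 11 on the array, was in the brightest 10%, and the brightest was ompa at 13.21 ± 0.32. With the median of a gene's probes 2 of these 10 were in the brightest 10%, beside 5 of 20 amacrine and 7 of 16 bipolar genes. The median percentiles were then 62.6 for horizontal, 80.1 for amacrine and 85.9 for bipolar cells.

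Ganglion cells are a small part of the retina, and their genes spread over most of the order. All 26 genes on the array passed, 8 were in the brightest 10% and the median percentile was 66.6. The RNA-binding protein gene rbpms2a was at 14.84, 15.01, 15.16 and 15.46, and the synuclein gene sncga at 14.96, 15.07, 14.41 and 15.32. Stathmin genes that act in axon growth were also bright, with stmn2b at 14.00 ± 0.30, and gap43, coding for a growth cone protein, was at 11.09, 10.03, 10.36 and 11.46. Transcription factors of ganglion cells were lower, from isl2b (10.91 ± 0.18) and pou4f2 (9.59 ± 0.17) to tbr1b (7.79 ± 0.22) and pou4f3 (6.64 ± 0.15). Of these 26 genes, gap43 and inaa alone were variable.

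Muller glia genes were bright, with 18 of 22 on the array past the filter, 10 of them in the brightest 10% and a median percentile of 92.9. The lipid carrier apoeb was at 17.19, 17.00, 16.93 and 17.45, the glutamine synthetase glula at 16.47, 16.04, 16.19 and 16.24 and the glutamate transporter slc1a2b at 15.53, 15.32, 15.44 and 15.85. The intermediate filament gene gfap, often used as a marker of glial reaction, stood lower at 12.17, 11.55, 11.44 and 12.27. The median range of the list was 0.70, against 0.40 over all genes, and 1 of the 18 genes, dkk3b, was variable.

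**Figure D2:**
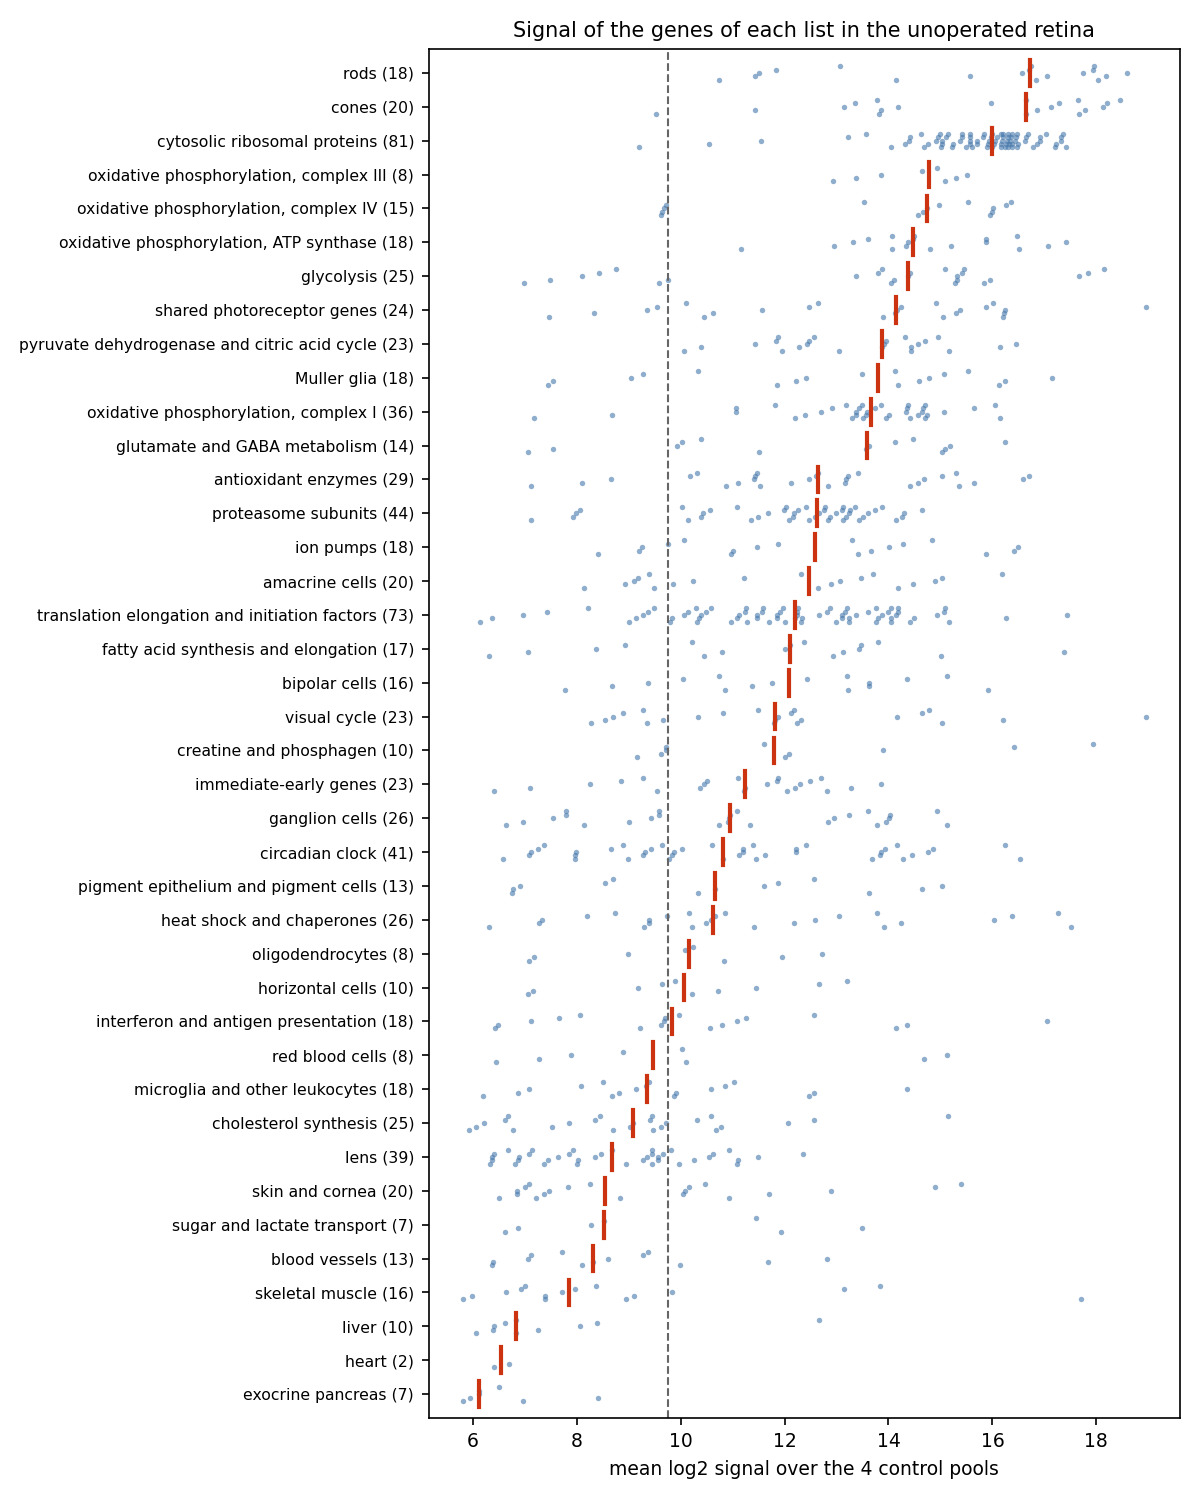
Mean log2 signal over the 4 control pools of each gene that passed the filter (points), grouped by gene list with the number of genes in brackets. Red bars mark list medians and the dashed line the median of all 10712 genes (9.76): rods, cones and ribosomal proteins lie farthest to the right, and liver, heart and exocrine pancreas farthest to the left.

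Genes of other cells of the eye were also detected. For microglia and other leukocytes, 18 of 21 genes on the array passed and the median percentile was 44.6, led by cd74a (14.35 ± 0.32), the invariant chain of antigen presentation, whereas the macrophage receptor gene csf1ra (6.86 ± 0.24) was near the bottom. All 8 oligodendrocyte genes on the array passed, with a median signal of 10.16, among them the myelin genes cldnk (12.72 ± 0.43) and plp1b (11.95 ± 0.44), and 2 were variable. For blood vessels 13 of 13 passed with a median percentile of 31.3, led by plvapa (12.81 ± 0.21). Of 27 skin and cornea genes on the array 20 passed, with a median percentile of 33.9, and 2 of these, icn (15.39 ± 0.49) and icn2 (14.90 ± 0.54), were in the brightest 10%. Tissues from outside the eye served as a floor. The median percentile was 11.6 over 10 of 16 liver genes, 2.74 over 7 of 15 genes of the exocrine pancreas and 7.92 over 2 of 8 heart genes. One gene of these lists stood apart: ambp, which codes for a plasma protein made in the liver, at 11.36, 13.87, 13.29 and 12.12. The genes that passed in these 3 lists without it were between 5.81 (ela3l) and 8.41 (prss1).

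Among the metabolic classes, glycolysis, the citric acid cycle and oxidative phosphorylation stood highest in the order after the ribosomal proteins, by the brightest probe of each gene. With the median of a gene's probes the median percentile of the citric acid cycle list was 88.3, below that of the antioxidant enzymes at 89.5. Of 25 glycolysis genes that passed, of 26 on the array, 18 were in the brightest 10% and the median percentile was 95.3. For several steps 1 gene copy was bright and its duplicate was dim: aldocb was at 17.67 and aldoca at 7.48, gapdhs at 18.15 and gapdh at 9.59, and pkma at 15.09 and pkmb at 9.76. Different probes report these copies, so the size of such a gap has no unit of transcript number. The lactate dehydrogenase genes ldhba (15.31 ± 0.11), ldhbb (14.42 ± 0.06) and ldha (14.11 ± 0.32) were all in the brightest 10%. By contrast, hexokinase hk2 (8.10 ± 0.20) and the phosphofructokinase genes pfkmb (8.76 ± 0.58) and pfkma (6.98 ± 0.52) were dim, and hk1 (13.38 ± 0.29) was the brighter hexokinase.

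Mitochondrial genes were bright as a group, and their range between pools was near that of other bright genes. Median ranges ran from 0.27 for the citric acid cycle list to 0.35 for complex IV. The median range over the brightest 10% of all genes was 0.33. In the list of pyruvate dehydrogenase and the citric acid cycle, 23 of 24 genes on the array passed, 12 were in the brightest 10% and the median percentile was 93.4, with idh2 (16.46 ± 0.15), a mitochondrial isocitrate dehydrogenase, at the head. For the respiratory chain the numbers in the brightest 10% were 26 of 36 for complex I, 7 of 8 for complex III, 11 of 15 for complex IV and 16 of 18 for ATP synthase, with median percentiles of 92.3, 96.4, 96.4 and 95.6. The ATP synthase subunit gene atp5f1b was at 17.41 ± 0.08, the complex IV subunit gene cox4i1 at 16.37 ± 0.12 and the complex I subunit gene ndufs1 at 16.15 ± 0.20. Over these 4 complexes the variable genes were ndufs8b, cox6a2 and atp5pf, which were all highest in pool 2. Highest in pool 2, as were 23.8% of all genes, were 22 of 36 complex I genes and 4 of 8 complex III genes. The same held for 11 of 15 complex IV genes and 10 of 18 ATP synthase genes. Lowest in pool 4, as were 23.0% of all genes, were 22, 5, 8 and 11 genes of these complexes in the same order. Of the 10 creatine and phosphagen genes, 3 were in the brightest 10%, and besides ckbb these were the mitochondrial creatine kinase ckmt2b (16.41 ± 0.20) and adenylate kinase ak1 (13.90 ± 0.04). Ion pumps, which use much of the ATP of a photoreceptor, had 9 of 18 genes in the brightest 10%, led by the calcium pump atp2b2 (16.50 ± 0.12) and the sodium pump subunit atp1a3b (16.41 ± 0.16).

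Transporters of sugar and lactate stood lower in the order than the enzymes. Of 7 genes that passed, slc2a3a (13.48 ± 0.19), a glucose transporter, was in the brightest 10%, and the median percentile was 33.9. The lactate transporter slc16a3b was at 13.01, 11.60, 11.71 and 11.38 and was thus variable, with pool 1 above the others. Glutamate and GABA metabolism had 8 of 14 genes in the brightest 10% and a median percentile of 91.9, and none of the 14 was variable. With the median of a gene's probes this count was 4.

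Lipid classes differed from each other. Fatty acid synthesis and elongation had 5 of 17 genes in the brightest 10% and a median percentile of 80.8. Its brightest gene was elovl4b at 17.36, 17.48, 17.26 and 17.44, an elongase known for the very long chain fatty acids of photoreceptor membranes. Cholesterol synthesis stood below the middle of the order, with 25 of 25 genes past the filter, a median percentile of 40.8 and a single gene in the brightest 10%, the regulator srebf2 (15.15 ± 0.10). The enzymes fdft1 (5.92 ± 0.24) and pmvk (6.22 ± 0.21) of that pathway were close to the lowest signals that passed. Antioxidant enzymes had 11 of 29 genes in the brightest 10%, with gstp1.2 (16.71 ± 0.14) and the ferritin gene fth1a (16.59 ± 0.08) ahead of gpx4b (15.65 ± 0.18).

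Ribosomal protein genes were bright and steady between pools. All 81 ribosomal protein genes on the array passed, 78 were in the brightest 10% and the median percentile was 98.4. Their median range between pools was 0.27, against 0.40 over all genes and 0.33 over the brightest 10%. None of the 81 was variable, against 7.56% of the brightest 10%. The brightest were rps14 (17.43 ± 0.14) and rpl7a (17.37 ± 0.10). Within this narrow range 52 of the 81 were highest in pool 4, as were 34.2% of all genes, and 49 were lowest in pool 3, as were 21.9% of all genes, and the list mean was 15.72, 15.63, 15.59 and 15.77. Translation factors had 23 of 73 genes in the brightest 10%, with eef1a1l1 at 17.43 ± 0.17, and proteasome subunits had 12 of 44, with psma1 at 14.64 ± 0.15. Of these, 4 translation factor genes and 2 proteasome genes were variable. The largest range among them was that of eef1a2, an elongation factor of neurons and muscle, at 10.58, 6.76, 11.55 and 12.30, for which pool 2 was low.

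The 4 pools differed most in genes of the lens, of a subset of cones, of the pigment epithelium and of blood. Over all 10712 genes the median range between pools was 0.40 and the median SD was 0.18. Repeated spots of the same probe within an array, 18 probes with 5 spots each, had a median SD of 0.20. A total of 1062 genes (9.91%) were variable. Among them 367 were highest in pool 1, 338 in pool 2, 138 in pool 3 and 219 in pool 4, which is 3.43%, 3.16%, 1.29% and 2.04% of all genes, and 286, 237, 154 and 385 were lowest in pools 1 to 4. The count was 679, 710, 910 and 694 with pool 1, 2, 3 or 4 left out, where fewer pools lower the range by construction. Of the brightest 10% 81 genes (7.56%) were variable. There were 527 variable genes with another probe past the filter, and for 415 of them (78.7%) that probe was highest in the same pool, as it was for 55.9% of all genes with a second probe. In 294 of the 527 the second probe was also variable.

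**Figure D3:**
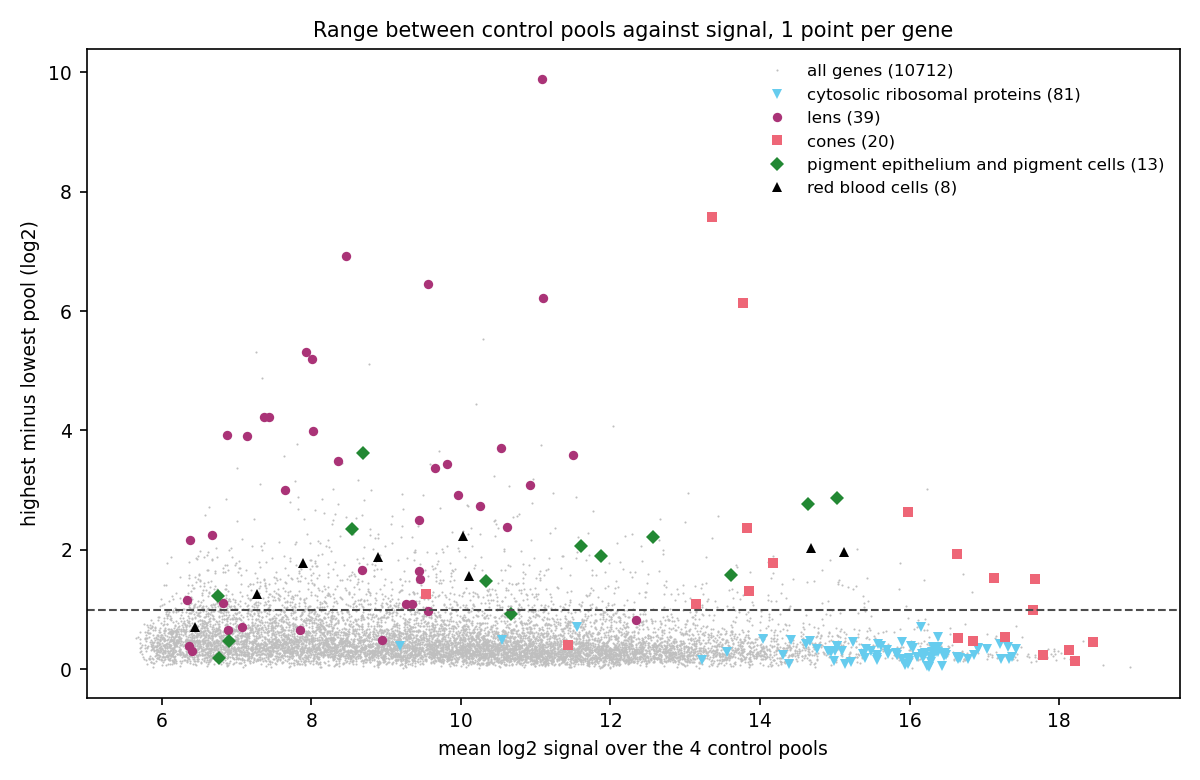
Difference between the highest and the lowest of the 4 control pools (log2, vertical axis) against the mean log2 signal (horizontal axis) for each of the 10712 genes (grey) and for 5 gene lists (coloured). The dashed line marks a range of 1: lens genes reach 9.89, the cone opsins opn1mw1 and opn1lw2 reach 7.57 and 6.13, and all ribosomal protein genes lie below the line.

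Opsins showed the largest differences between pools outside the lens. The green cone opsin gene opn1mw1 was at 16.49, 8.92, 16.13 and 11.90 in pools 1 to 4, a range of 7.57 and the second largest of all genes. The red cone opsin gene opn1lw2 was at 16.56, 10.43, 16.39 and 11.72, a range of 6.13. Both were high in pools 1 and 3 and low in pools 2 and 4. Their second probes gave the same order, with 15.94, 8.44, 15.40 and 11.31 for opn1mw1 and 14.80, 9.09, 14.49 and 9.80 for opn1lw2, and the range of the brightest probes was at least 4.59 and 4.84 with any single pool left out.

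The other opsins did not share that size of difference. The green opsin gene opn1mw2 was at 16.99, 14.35, 16.87 and 15.71, lowest in pool 2 like opn1mw1. Another green opsin gene, opn1mw3, ran the opposite way, at 15.94, 17.87, 16.35 and 16.41. None of opn1mw4 (17.28 ± 0.24), the blue opsin opn1sw2 (16.86 ± 0.21) and the ultraviolet opsin opn1sw1 (16.65 ± 0.21) was variable, and opn1lw1 was not among the matched symbols. Opsin genes of one cluster are near copies, and how far their probes detect each other was not tested. The thyroid hormone receptor thrb, which acts in the choice of red cone fate, was at 13.51, 13.22, 13.42 and 12.42, lowest in pool 4 and not in pool 2. The gene cyp27c1, whose enzyme converts vitamin A1 to A2 and so shifts the sensitivity of visual pigments towards red, was at 10.06, 14.14, 12.46 and 11.46, highest in pool 2. For cyp27c1 pools 2 and 3 lay above pools 1 and 4, as for the pigment epithelium genes described below, and a link to the opsins was not tested. Across all variable genes, 50 (4.71%) had pools 1 and 3 above and pools 2 and 4 below the largest gap, as these opsins did.

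**Figure D4:**
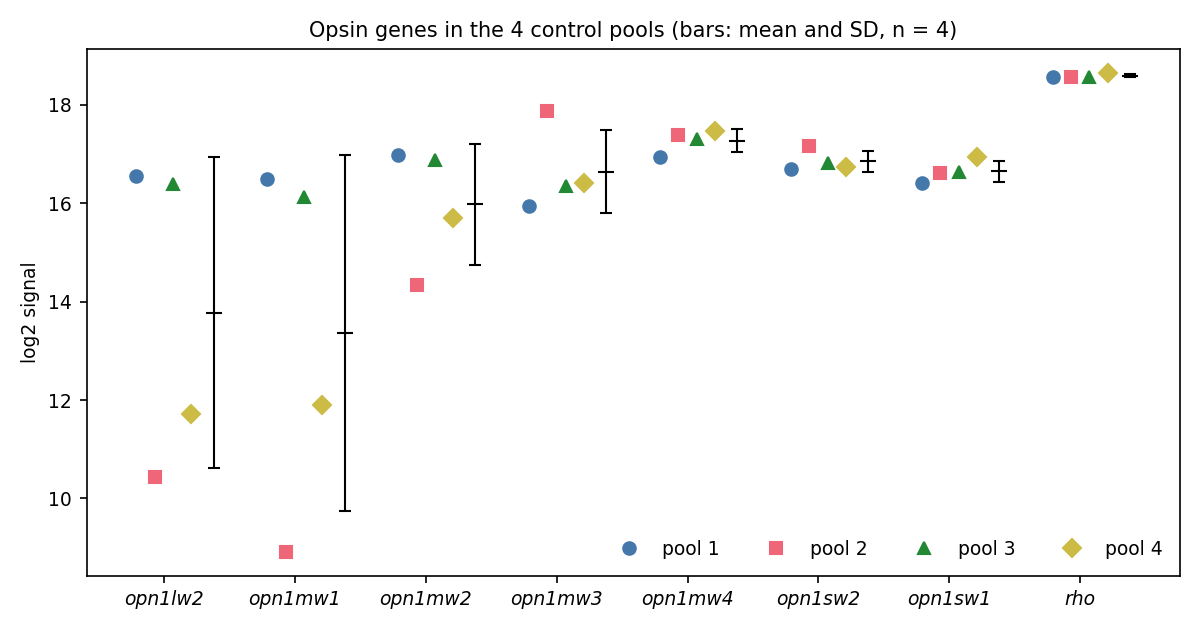
Log2 signal of 7 cone opsin genes and of the rod opsin gene rho in each of the 4 control pools (symbols), with the mean and SD (n = 4) to the right of each. For opn1lw2 and opn1mw1 pools 1 and 3 lie above 16 and pools 2 and 4 lie below 12, whereas opn1mw4, opn1sw2, opn1sw1 and rho have a range below 1.

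A second pattern among cone genes set pool 4 apart. Of the 13 cone genes other than opsins, 11 were lowest in pool 4, as were 23.0% of all genes. Of the same 13 genes, 9 were highest in pool 1, as were 25.3% of all genes. Their mean was 15.81, 15.56, 15.59 and 14.88. These counts rest on the brightest probe of each gene. For pde6ha that probe was lowest in pool 4, but its second probe, at 18.16, 18.09, 18.24 and 18.30, was highest there. The second probes of arr3a, gnat2, gnb3b and pde6hb were lowest in pool 4. The arrestin gene arr3b was at 14.92, 14.30, 14.33 and 13.15, the phosphodiesterase gene pde6c at 17.67, 17.32, 17.38 and 16.15 and the opsin kinase grk7a at 14.65, 14.25, 14.09 and 12.29. In all 3 genes pool 4 lay below the other pools by more than these differed among themselves. Of the 24 genes listed as shared by both photoreceptor types 13 were also lowest in pool 4, as were 23.0% of all genes. The largest range was that of guca1c at 17.28, 16.52, 16.87 and 14.26, with a second probe that was also highest in pool 1 and lowest in pool 4. Whether rods, cones or both gave the signal of guca1c and of the other listed genes was not tested. Rod genes did not move in this way as a list: their mean was 15.49, 15.72, 15.54 and 15.61, with 3 of 18 lowest in pool 4. The kinase gene grk1b, which was counted on the rod list, was at 14.64, 14.55, 14.30 and 13.11, with pool 4 low as in the cone genes above. Whether rods or cones gave the grk1b signal was not tested. Without pool 4, 4 cone genes and 1 shared photoreceptor gene were variable, in place of 11 and 10. Of the 11 variable cone genes 10 had a second probe, which was variable in all 10 and highest in the same pool in 9. The means of the amacrine and bipolar lists were both highest in pool 4, at 12.06 and 12.11.

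Lens genes were high in pool 1. Of 59 lens genes on the array 39 passed, a median percentile of 35.6, and 31 of the 39 were variable, against 9.91% of all genes. In 30 of the 39 the highest pool was pool 1, and 27 were both variable and highest there, as were 3.43% of all genes. Lens genes made up 15 of the 30 genes with the largest range. The largest range of all, 9.89, was that of the gamma-S crystallin gene crygs1, at 15.83, 12.44, 10.13 and 5.94. This gene had 1 probe, and its value in pool 4 was close to the lowest signals that passed. The beta crystallin gene cryba1a was at 14.44, 11.50, 10.23 and 8.22. The gamma-S crystallin gene crygs2, which like crygs1 had 1 probe, was at 12.83, 8.64, 6.48 and 5.90. In these 3 genes pool 1 was highest, pool 2 next and pool 4 lowest. In others pool 1 alone was high: crybb1 was at 10.48, 6.35, 6.26 and 6.35, and bfsp2, which codes for a filament protein of lens fibre cells, at 9.68, 6.14, 5.91 and 5.75.

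The list mean for the lens was 10.39 in pool 1 and no higher than 8.38 in the others. Without pool 1, 16 lens genes were variable. Of the 20 lens genes that did not pass, 8 were well above background on 3 arrays, and with no filter on dim probes 49 lens genes were variable. The 15 genes of the gamma-M2d crystallin family, which are near copies of each other, kept less to this pattern, with 8 highest in pool 1 and 7 in pool 4 and means of 9.66, 8.31, 8.43 and 9.22, against 10.84, 8.42, 7.72 and 7.33 for the other 24. Lens was not an intended part of the samples, which were labelled as retinae. Whether lens material in the pools or expression in retinal cells gave these signals was not tested.

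Genes of the pigment epithelium were highest in pool 2 and next highest in pool 3. Of 18 on the array 13 passed, 10 of which were variable. In pool 2, 10 of the 13 were highest, as were 23.8% of all genes. The retinoid isomerase gene rpe65a, whose enzyme makes the chromophore of the visual cycle, was at 14.19, 16.64, 15.52 and 13.77. The retinal G protein-coupled receptor gene rgrb was at 13.34, 16.11, 15.29 and 13.82, and the retinol uptake receptor gene stra6 at 11.55, 13.77, 13.37 and 11.59. The pigment genes tyrp1b (13.22, 14.45, 13.93 and 12.87) and pmela (10.72, 12.79, 11.71 and 11.19) had the same highest pool. Pools 2 and 3 lay above pools 1 and 4 in all 5 of these genes, and the list mean was 9.95, 11.50, 11.07 and 9.93. Tyrosinase (tyr) and mitfa were each well above background on 1 array. The visual cycle list holds several of the same genes, and 9 of its 23 were variable, with a mean of 11.72, 12.26, 12.13 and 11.45. Its Muller glia member rlbp1a was not variable, at 14.93, 14.51, 14.51 and 15.14, whereas rlbp1b, on the pigment epithelium list, was at 10.89, 12.80, 12.46 and 11.36.

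Blood genes were also highest in pool 2 and next highest in pool 3. All 8 red blood cell genes that passed, of 10 on the array, were highest in pool 2, and 7 were variable, where 3.16% of all genes were variable and highest in that pool. The beta-globin genes hbba1 and ba1l were at 13.63, 15.66, 15.21 and 14.25 and at 14.16, 16.13, 15.64 and 14.59. Globin genes are near copies, and their probes may detect each other, which was not tested. The erythroid haem synthesis gene alas2 was at 6.52, 7.78, 7.53 and 7.27. The list mean was 9.37, 10.82, 10.38 and 9.66, and 4 genes were variable without pool 1. Vessel genes were also higher in pool 2, for 8 of 13 genes, but not in pool 3. Of all genes 23.8% were highest in pool 2. The gene egfl7, a factor secreted by endothelium, was at 7.89, 10.03, 7.93 and 7.42, and rgs5a, a marker of pericytes, at 11.20, 12.80, 11.74 and 10.97. Of the vessel genes 6 were variable, or 2 without pool 2. The plasma protein gene ambp, described above, was likewise highest in pool 2 and next highest in pool 3.

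Muscle genes were mostly at the bottom of the order, and part of them were higher in pool 3. Of 31 on the array 16 passed, with a median percentile of 24.7. The fast light chain gene mylpfa was at 5.86, 5.94, 8.58 and 6.15, the calcium pump gene atp2a1 at 6.52, 6.18, 8.66 and 6.68 and the troponin gene tnnt3b at 6.26, 6.86, 8.30 and 6.26. In these 3 genes pools 1, 2 and 4 were close to the lowest signals that passed and pool 3 was apart from them. Of the 16 muscle genes 6 were highest in pool 3, as were 16.7% of all genes, and 4, 3 and 3 were highest in pools 1, 2 and 4. Variable muscle genes numbered 6, of which 4 were highest in pool 3, 1 in pool 1 and 1 in pool 2. Of the 6, 3 were left without pool 1 and 2 without pool 3. None of these 6 genes had a second probe past the filter. The glycolytic gene gapdh, at 9.48, 8.29, 11.74 and 8.85, was also highest in pool 3, and all 4 of its probes agreed in that. Among skin and cornea genes 9 of 20 were variable, 4 without pool 1 and 2 without pool 2, and icn was at 15.21, 16.12, 15.07 and 15.16.

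**Figure D5:**
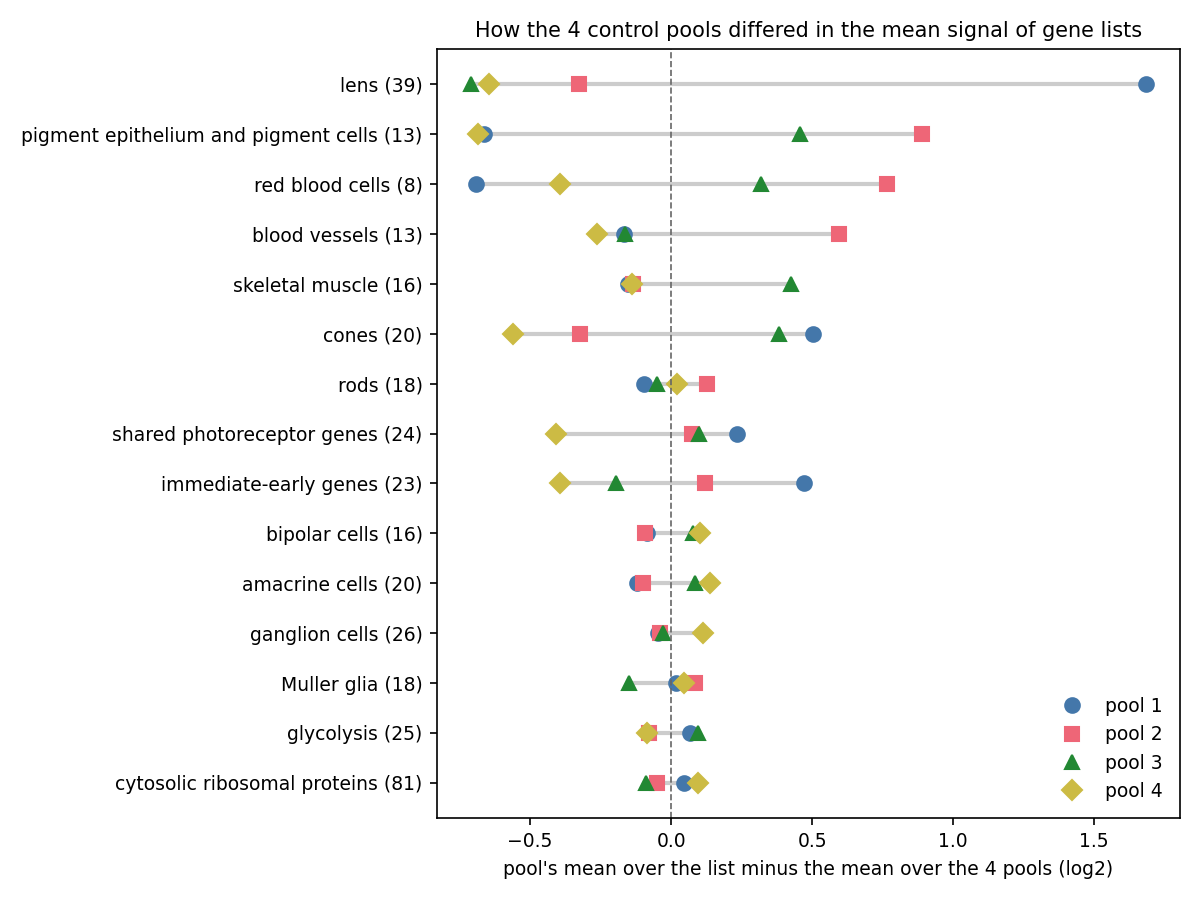
Mean log2 signal of 15 gene lists in each control pool (symbols), shown as the difference from the list's mean over the 4 pools, with the number of genes in brackets. The lens list lies 1.68 above its mean in pool 1. The means of the lists of pigment epithelium and red blood cells are highest in pool 2 and next in pool 3. The mean of the muscle list is highest in pool 3, although most of its genes are highest in other pools. The lists of rods, bipolar, amacrine and ganglion cells, Muller glia, glycolysis and ribosomal proteins have a range below 0.27.

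Immediate-early genes, which respond within minutes to activity or stress, differed between pools as a class. Of 25 on the array 23 passed, 12 were variable and 14 were highest in pool 1, as were 25.3% of all genes. The list mean was 11.40, 11.05, 10.73 and 10.54. The gene fosab was at 12.90, 11.43, 10.64 and 9.94, egr4 at 11.91, 10.26, 10.29 and 9.54 and npas4a at 11.63, 10.24, 10.80 and 9.13. Pool 1 was highest and pool 4 lowest in each of these 3. The lens genes named above had the same highest pool, and their part in this was not tested. Of the 12 variable genes 8 were highest in pool 1, 3 in pool 2 and 1 in pool 4. Those highest in pool 2 included socs3a (12.70, 13.32, 11.88 and 12.04) and klf2a (8.96, 10.22, 8.20 and 8.02). Of all 23 genes, 4 were highest in pool 4. The gene jun, at 12.36, 12.05, 11.80 and 11.99, was not variable.

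The hour of collection is not given in the sources used here. The circadian clock list had 41 of 42 genes past the filter and 11 in the brightest 10%. The brightest was aanat2, whose enzyme governs the rhythm of melatonin synthesis, at 16.24, 16.76, 16.23 and 16.92. Of the 41 genes 12 were variable. The genes per1b (12.42, 11.09, 11.12 and 10.14) and bhlhe40 (15.09, 14.06, 14.34 and 13.19) were highest in pool 1 and lowest in pool 4, whereas the repressor nr1d1 (10.42, 10.70, 10.06 and 12.04) was highest in pool 4. For bmal1b, a core activator, the values were 11.22, 8.91, 10.19 and 9.77. Its paralog bmal1a, at 13.99, 13.97, 14.00 and 13.81, was not variable. The list mean ran only from 10.85 to 11.07, since genes of opposite order are on the list, and 5 of its genes were variable without pool 1 and 6 without pool 4.

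Heat shock and chaperone genes were led by cirbpa (17.23, 17.60, 17.42 and 17.77), an RNA-binding protein induced by cold, and by hsp90ab1 (17.27 ± 0.09). Of 26 that passed, 6 were variable, 3 of them without pool 1, and the inducible hsp70l was highest in pool 1, at 11.66, 10.74, 10.65 and 10.32. Of 18 genes of interferon response and antigen presentation that passed, 8 were variable, 5 without pool 3. The antiviral gene isg15 was at 9.29, 10.86, 8.18 and 8.57, with pool 2 highest. The immunoproteasome genes psmb12 (9.60, 6.94, 8.09 and 7.58) and psmb9a (8.16, 6.91, 6.92 and 6.51) were highest in pool 1. The complement gene c1qa, on the leukocyte list, shared that pool, at 9.15, 7.42, 7.79 and 7.97, and 13 of the 18 leukocyte genes were highest in pool 1 and 11 were lowest in pool 3, where 25.3% and 21.9% of all genes were. Of these leukocyte genes 3 were variable, 1 without pool 1 and 1 without pool 3. The list mean of the leukocyte genes was 9.95, 9.58, 9.36 and 9.70.

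Some of the 30 genes with the largest range belonged to none of these lists. The cholesterol hydroxylase gene ch25hl1.1 was at 8.69, 5.79, 10.89 and 9.72, lowest in pool 2. The iodide transporter gene slc5a5 was at 5.87, 9.65, 8.95 and 6.73, and gch2, coding for the first enzyme of pterin synthesis in pigment cells, at 9.20, 10.87, 11.21 and 7.56. These last genes had pools 2 and 3 above pools 1 and 4, as the pigment epithelium genes did. The gene desi1a was at 8.39, 11.74, 12.56 and 8.12, with the same pools high. The genes jac8 and jac9 followed the lens genes, at 10.89, 6.50, 6.08 and 5.57 and at 10.69, 6.85, 6.04 and 5.81. Of the 30 genes, 11 had a second probe past the filter, and in all 11 that probe was variable and highest in the same pool.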

How the data were processed

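The 4 one-colour Agilent arrays of retinal RNA from unoperated fish were used. Groups came from the sample titles. The authors deposited log2 values for every spot, made by a normal-exponential background correction and quantile normalisation, and these log2 values were the main measurement. The offset of that correction is not given in the sources used here. The deposited scanner files of Feature Extraction 10.7.3.1 hold fluorescence intensity per spot, uncorrected and processed, with marks for spots well above background, saturated or outlying. Rows of the log2 table were matched to spots by feature number, which gave a Spearman correlation of 1 with the scanner intensity on every array. The 4 value columns of the crush samples were not used.

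Control spots and outlier spots (6, 382, 10 and 21 in pools 1 to 4) were left out, and spots of 1 probe were averaged. Of 27369 probes with a RefSeq accession, 25598 were named through a table of RefSeq genes of assembly GRCz12tu, and other probes were not named. Each gene took its brightest probe, well above background on all 4 arrays. A gene was called variable at a range of at least 1 between pools. With 1 group there was no comparison to test, and Dixon's ratio served only to mark pools that stood apart. Each pool had 1 array, so the spread between pools includes technical error, and the number of arrays limits precision. Genes named are the 30 brightest, the 30 with the largest range and members of 43 gene lists (their brightest, dimmest or undetected and variable members). The members and lists were chosen with earlier results of these data known, and 3 lists were written after values of pool 4 had been seen. In simulated data, 200 of 200 shifted genes among 10712 were recovered with no other gene called. The simulated shift was larger than the cut on the range, and the simulated noise was smaller than the median spread of repeated spots. That outcome was set by these choices, so it checks the code and gives no rate of false calls in the real data. Alternatives were other background corrections and scalings (limma 3.58.1, R 4.3.3), the median of a gene's probes, no filter, unmatched identifiers as genes, a range of 1.5 and each pool left out. Tables were handled with pandas 2.3.3 and numpy 2.4.6 under Python 3.11.15.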

Additional observations from a re-analysis of the deposited data

Results flagged for a closer look

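A list mean or a named gene was marked when 1 of the 4 pools stood so far from the rest that its gap to the nearest pool, as a share of the whole range, was above Dixon's critical value for 4 samples. Chance marks about 1 in 20 groups that were not chosen for their spread. That rate does not hold here, since the lists and their members were chosen with earlier results of these data known. The 30 genes with the largest range were also picked for their spread, and 3 lists were written after values were seen. All lists and genes share the same 4 arrays, so the counts below are not set against that rate. Of 43 lists 4 were marked and of 60 genes 8 were marked. No explanation for these was tested.

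Pool 1 stood apart and highest for the mean of the lens list (a share of 0.840) and for the genes crybb1 (0.978), crybgx (0.931), bfsp2 (0.90), crygs3 (0.897) and crygm4 (0.860), and also for aldocb (0.853), whose range was only 0.24. Pool 2 was apart and highest for the mean of the blood vessel list (0.883), and pool 3 for the mean of the skeletal muscle list (0.970). Pool 4 was apart and highest for the mean of the ganglion cell list (0.884), whose range was 0.16, and for rho (1, since the other pools held the same value after quantile normalisation). Pool 4 was apart and lowest for pde6hb (0.956).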

How the results depend on the processing

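No paired analysis was possible because a single group was described. The order at the top depended on the probe and on the unit counted: 17 of the 30 brightest genes remained with the median of a gene's probes, and 17 when unmatched identifiers were counted as genes, whereas 28 to 30 remained with any 1 pool left out. With unmatched identifiers 19640 genes passed and 1972 were variable. At a range of 1.5, 379 genes were variable. Other corrections and scalings gave from 1024 to 1507 variable genes, and 746 genes of the brightest 10% remained with the median of the probes. That setting moved glutamate and GABA metabolism from 8 to 4 genes in the brightest 10%. Without the filter 49 lens and 10 muscle genes were variable. With 1 pool left out the variable genes numbered from 679 to 910 in all, from 4 to 6 for red blood cells, 16 to 35 for lens, 2 to 6 for skeletal muscle, 2 to 8 for skin and cornea, 3 to 5 for heat shock, 5 to 12 for the clock, 2 to 6 for blood vessels, 5 to 7 for interferon, 4 to 11 for cones and 1 to 10 for shared photoreceptor genes. In all, the count of variable genes moved by more than 1.5 times without 1 pool for 32 of the 43 lists, 19 of which had 4 or fewer variable genes. The lists of reprogramming, axon growth and replication genes, from 9, 10 and 6, fell to 2, 4 and 2 without pool 4. With the processed signal 9 replication and 6 leukocyte genes were variable. With the median of the probes the median percentile was 98.2 for rods, 98.9 for cones and 98.8 for ribosomal proteins. Signals near 6 lie close to background, so differences at that end are less certain, and differences among the brightest genes are compressed.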

Other observations

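Pool 4 was also highest for many genes of retinal regeneration, on 3 lists that were written after values of that pool had been seen and that are therefore descriptions only. Of all genes 34.2% were highest in pool 4. On the list of Muller glia reprogramming and progenitor genes 12 of 19 were highest in pool 4, 9 were variable and 8 of these 9 were highest there, but without pool 4 only 2 were variable. The follistatin gene fsta was at 10.48, 10.08, 10.40 and 12.86 in pools 1 to 4, the proneural gene ascl1a at 8.66, 8.06, 8.12 and 10.30 and the Notch target her4.1 at 8.15, 6.80, 7.32 and 9.32. In these genes pool 4 lay above the other pools. The list mean was 9.88, 9.44, 9.41 and 10.24. The progenitor gene rx1 ran the other way, at 14.43, 13.98, 13.85 and 13.06.

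Of 21 axon growth genes 16 were highest in pool 4 and 10 were variable, 9 of them highest there, and 4 were variable without pool 4. The tubulin gene tubb5 was at 13.10, 13.08, 12.74 and 14.19 and the thymosin gene tmsb at 10.20, 8.56, 9.09 and 10.23, so that pool 1 was close to pool 4 for tmsb. DNA replication genes were dim, with a median percentile of 27.5, and 13 of 16 were highest in pool 4. The list mean was 8.58, 8.28, 8.17 and 8.79, with pool 1 closest to pool 4. The median range was 0.91, against 0.40 over all genes. The gene mcm6, for a subunit of the replicative helicase, was at 8.08, 7.53, 7.41 and 8.56. Of the 16 genes 6 were variable, all 6 highest in pool 4, and 2 were variable without pool 3 and 2 without pool 4. Pool 4 had 2.04% of all genes variable and highest in it. It was also the pool with the lowest mean of the cone genes other than opsins and of the immediate-early genes. The pool and its array cannot be told apart here.

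The interferon-induced gene mxc was rank 62 of all genes by its brightest probe (17.05 ± 0.09), while another probe of the same gene was at 6.12. The gene for the rod phosphodiesterase subunit pde6ga was variable and lowest in pool 1, at 16.01, 17.30, 16.92 and 17.11, while its duplicate pde6gb, also lowest in pool 1, was not variable, at 17.82, 18.07, 17.91 and 18.01.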
